A study of Mus musculus with 33 samples.

Results

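Transcripts of secreted antibodies were followed in sorted bone marrow cells of old mice. The cells were hematopoietic stem cells (HSCs), progenitors of lymphoid cells (CLPs) and progenitors of granulocytes and monocytes (GMPs). The members are 10 genes found by their symbols among the 55376 symbols counted in each library: the heavy chain constant regions Ighm, Ighd, Ighg2b and Igha, the light chain constant regions Igkc, Iglc1, Iglc2 and Iglc3, the J chain gene Jchain, and Mzb1. They were selected on measured values, the lower Ighm in HSCs of mice given nicotinamide riboside (NR) and the higher Igkc after its withdrawal. The values of these 2 comparisons are therefore descriptions and carry no test. Total RNA from sorted cells of C57BL/6 males aged 24 to 29 months was sequenced. O-WT mice were untreated, O-NR mice drank 12 mM NR, a precursor of NAD, for 4 to 6 weeks, and O-NR-RC mice were sampled 2 months after NR had been removed. Cohort 2 holds 4 O-WT and 4 O-NR libraries of each cell type, and cohort 1 holds HSC libraries alone, namely 3 of O-NR-RC, 4 of O-NR and 2 of O-WT mice. The labels do not say that each library is a separate mouse, so p-values measure the spread between these libraries only. One label field names the GMP samples as common myeloid progenitors, while their titles call them GMPs. HSCs were sorted as lineage negative, c-Kit and Sca1 positive, CD34 and Flk2 negative and CD150 positive cells, CLPs as lineage negative cells with IL-7Ra and Flk2, and GMPs as lineage and Sca1 negative cells with c-Kit, CD34 and Fcg receptors. The lineage antibodies for HSCs were against Ter119, B220, Mac1, CD3, Gr1 and IL-7Ra.

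An antibody is built of heavy and light chains, each with a variable end encoded by 1 of many V genes and a constant end that sets its class. B cells join a V gene to a joining segment by cutting DNA, in the heavy chain with a D segment between them. The heavy chain locus is joined first and then the kappa or lambda light chain locus, and each clone keeps its own pair. The constant region is added by splicing of the RNA. Ighm and Ighd give IgM and IgD, Ighg2b gives IgG2b and Igha gives IgA. Plasma cells, which live for long times in bone marrow, make these RNAs in great excess, and they join IgM and IgA into larger complexes with the J chain. Mzb1 is an endoplasmic reticulum protein that helps to assemble them. Unjoined heavy chain constant regions are also transcribed in progenitor cells before any V gene is joined, as germline transcripts.

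The word secreted could be checked only in part. IgM is made in a secreted and a membrane form from the same gene by alternative ends of the transcript, and reads were counted per gene, so Ighm counts add both. The 2 ends are shown to make clear what a gene count cannot separate. The sequences are the last coding bases of the 2 forms in mm10 from the Gencode M21 transcripts, 5′ to 3′ on the minus strand, with the shared bases in lower case and those of 1 form alone in capitals. The secreted end is one stretch, chr12:113420870-113420958, and the membrane end joins separate exons within chr12:113418829-113420958.
Ighm secreted: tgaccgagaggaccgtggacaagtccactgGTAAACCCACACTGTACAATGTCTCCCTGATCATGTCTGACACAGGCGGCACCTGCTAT
Ighm membrane: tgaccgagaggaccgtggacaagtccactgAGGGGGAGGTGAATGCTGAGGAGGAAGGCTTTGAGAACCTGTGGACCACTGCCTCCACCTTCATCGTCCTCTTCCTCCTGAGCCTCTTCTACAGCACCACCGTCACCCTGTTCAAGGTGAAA
The secreted form alone has 59 of these coding bases and the membrane form alone has 122. Ighm lies at chr12:113418558-113422730, followed on the same minus strand by Ighd (chr12:113406604-113416324), Ighg2b (chr12:113302965-113307933) and Igha (chr12:113254830-113260236). Igkc lies at chr6:70726435-70726966 on the plus strand, Jchain at chr5:88519809-88527891 on the minus strand, and Iglc1 (chr16:19061618-19062071), Iglc3 (chr16:19065230-19065681) and Iglc2 (chr16:19198396-19200351) on the minus strand.

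Between 4792380 and 23816042 reads were counted per library. Levels are given as CPM, a gene's reads scaled to all counted reads of its library. Where no read was counted, up to 3 reads are allowed by counting error, or 0.333 CPM in the 1 O-NR HSC library of cohort 2 without an Igkc read. HSC libraries carried their defining genes, with 5 marker genes summing to 1109 to 1353 CPM in cohort 2, against 23.5 to 103 CPM in CLPs and GMPs. The 4 CLP markers summed to 2173 to 3779 CPM in CLPs, and the 5 GMP markers to 17084 to 19683 CPM in GMPs. Receptors of smell and pheromones, which blood cells are not known to use, summed to 4281 to 14711 CPM in cohort 1 and to 832 to 8004 CPM in cohort 2. Levels of the 2 cohorts are therefore set side by side as values only, and tests are made within a cohort.

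Of the 4 members that passed the filter on low values in cohort 2 HSCs, Ighm, which encodes the IgM heavy chain, differed most between O-NR and O-WT. O-WT libraries 1 to 4 had 71.9, 18.0, 110 and 415 CPM of Ighm, and O-NR libraries 1 to 4 had 15.0, 2.00, 1.70 and 2.09 CPM. The O-WT libraries themselves spanned more than an order of magnitude. Ighm was chosen for this difference, so that the ranges of the groups lie apart is no support. The share of all genes whose ranges lie apart was not counted. The means were 154 ± 178 CPM in O-WT and 5.19 ± 6.51 CPM in O-NR (SD, n = 4), a log2 fold change of −4.86 (SE 0.81). It was −3.63 without O-WT library 4 and −6.33 without O-NR library 1. In bulk RNA, fewer cells of a type and less RNA per cell cannot be told apart.

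Igkc gave a less even picture. Igkc, the constant region of kappa light chains, was at 60.0, 20.3, 92.1 and 273 CPM in O-WT libraries 1 to 4 and at 80.5, 0, 35.3 and 0.996 CPM in O-NR libraries 1 to 4. O-NR libraries 1 and 3 thus lay within the O-WT range, and library 2 had none among 9022496 counted reads. The log2 fold change was −1.87 (SE 0.88), with means of 111 ± 112 CPM in O-WT and 29.2 ± 37.9 CPM in O-NR (SD, n = 4). For every 100 Ighm reads, the O-WT libraries had between 65.7 and 113 Igkc reads. O-NR libraries 1 and 3 had 538 and 2075, above that range, and libraries 2 and 4 had 0 and 47.6, below it.

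The 2 O-NR libraries high in Igkc were also the highest of their group in Igha. Ighd, the IgD heavy chain, was at 31.3 CPM in O-NR library 1 and at 0.399 to 1.77 CPM in the other O-NR libraries, against 0.543 to 2.49 CPM in O-WT. Igha, the IgA heavy chain, was at 22.4 and 23.9 CPM in O-NR libraries 1 and 3, at 1.88 and 0.996 CPM in libraries 2 and 4, and at 0.853, 2.96, 14.7 and 1.04 CPM in O-WT libraries 1 to 4. Per kilobase of exon, O-NR library 1 had 16.5 CPM of Ighd, 8.39 of Igha and 7.93 of Ighm beside 151 of Igkc, and library 3 had 8.97 CPM of Igha and 0.901 of Ighm beside 66.3 of Igkc. O-WT library 4 had 220 CPM per kilobase of Ighm, 0.388 of Igha and 513 of Igkc. Of the 4 heavy chain members, Ighm was the highest per kilobase in each O-WT library, Ighd in O-NR library 1 and Igha in O-NR library 3. O-NR libraries 2 and 4 had few reads to rank, with Ighm at 18 and 21 and Ighg2b at 50 and 42 reads. Lower Ighm in O-NR chose the members, so its lower place there was to be foreseen.

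The same 2 libraries were the highest of O-NR in the J chain gene. Jchain, which links IgM and IgA units, was at 10.6, 6.05, 13.7 and 28.1 CPM in O-WT and at 11.9, 2.11, 9.28 and 2.69 CPM in O-NR. The O-NR libraries high in Igkc were again within the O-WT range, and the log2 fold change was −1.11 (SE 0.49). Mzb1 stayed between 0 and 0.665 CPM in all 8 libraries, at most 6 reads. Iglc1, Iglc2 and Iglc3 of lambda light chains were at or under 1.86 CPM except for Iglc2 in O-NR library 3, at 2.34 CPM or 33 reads. Ighg2b, at 2.40 to 4.98 CPM in O-WT and 1.35 to 5.54 CPM in O-NR, had a log2 fold change of 0.20 (SE 0.43).

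**Figure D1:**
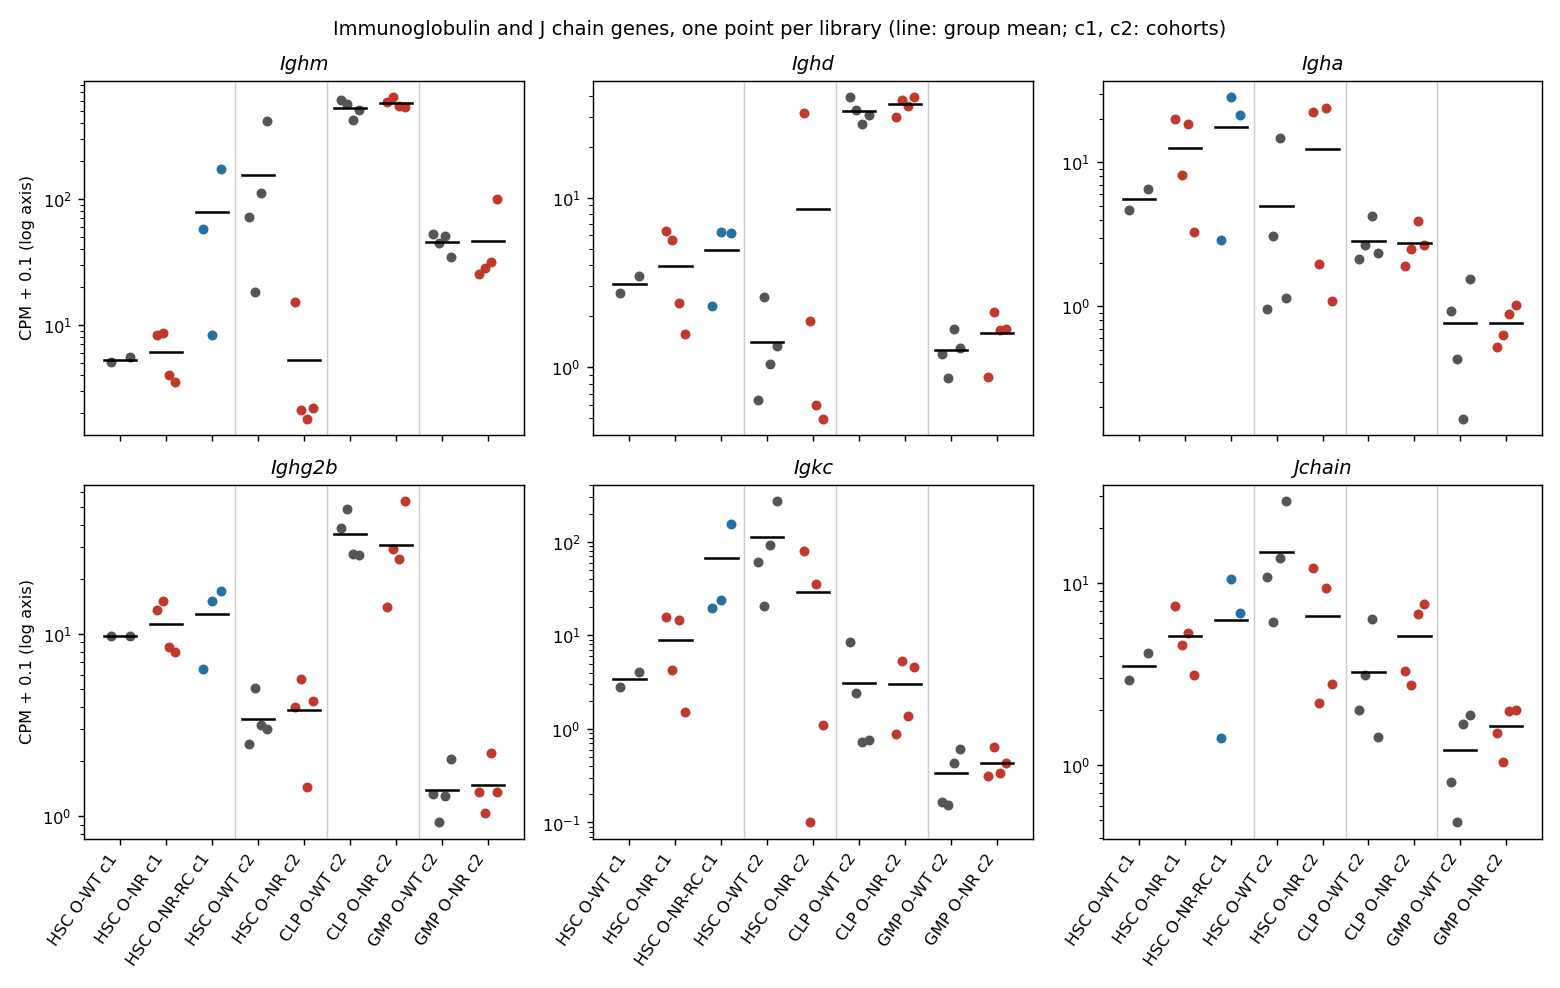
CPM plus 0.1 on a log axis for 6 of the 10 genes, with each point 1 library, each line a group mean, grey for O-WT, red for O-NR and blue for O-NR-RC. Ighm of cohort 2 HSCs lay between 18.0 and 415 CPM in O-WT and between 1.70 and 15.0 CPM in O-NR, while CLPs and GMPs of the 2 treatments overlapped.

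V genes were counted to see whether antibody reads of a library fell on few or on many symbols. The table holds 183 Ighv, 160 Igkv and 3 Iglv symbols, and the share of the most counted symbol in its class is given with a 95% exact (Clopper-Pearson) interval, for counting error only. In O-WT library 4, Ighv1-85 took 552 of 2018 Ighv reads (27.4%, 25.4% to 29.4%) and Ighv1-80 took 393, while Igkv9-124 took 481 and Igkv6-23 took 326 of 2221 Igkv reads. In O-WT library 1 the leaders were Ighv1-69 (108 of 499 reads) and Igkv4-57-1 (136 of 685), and in library 3 Ighv1-55 (205 of 851) and Igkv4-72 (201 of 922). O-WT library 2, with the lowest Ighm of the group, had Ighv1-82 at 51 of 689 reads and Igkv12-44 at 63 of 804. The median Ighv symbol had at most 2 reads in any of these 4 libraries.

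In O-NR library 3, Ighv3-6 took 129 of 406 Ighv reads (31.8%, 27.3% to 36.5%) and Igkv5-39 took 154 of 508 Igkv reads (30.3%, 26.3% to 34.5%). O-NR library 1 had Ighv5-17 at 103 and Ighv1-81 at 98 of 545 reads, with Igkv4-74 at 208 and Igkv1-110 at 122 of 701. The top shares of the other 2 O-NR libraries were 7.38% and 4.99% for Ighv and 4.97% and 5.76% for Igkv. Those are the 2 libraries with little or no Igkc. Smell and pheromone receptors summed to 1838, 3687, 1488 and 2386 CPM in O-NR libraries 1 to 4. In O-WT libraries 1 to 4 the sums were 1441, 4494, 3252 and 2110 CPM. The part that reads spread over many symbols have in the low top shares was not tested. Igkv1-110 was the next most counted Igkv symbol in both O-WT library 3 and O-NR library 1, while no top Ighv or Igkv symbol was shared among the 6 libraries in which Igkc was above 20 CPM.

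Reads are short, and V genes resemble each other, so it is shown how far the 2 leading heavy V genes of O-WT library 4 can be told apart. Both are on the minus strand of mm10, Ighv1-85 at chr12:116000028-116000317 and Ighv1-80 at chr12:115912344-115912633. The last 290 coding bases are printed 5′ to 3′, with the bases that differ in capitals.
Ighv1-85: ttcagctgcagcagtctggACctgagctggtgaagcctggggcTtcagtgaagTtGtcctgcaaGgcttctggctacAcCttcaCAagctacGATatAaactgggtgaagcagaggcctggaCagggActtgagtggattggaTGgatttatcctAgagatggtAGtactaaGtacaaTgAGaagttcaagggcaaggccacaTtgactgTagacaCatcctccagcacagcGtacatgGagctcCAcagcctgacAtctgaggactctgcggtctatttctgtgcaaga
Ighv1-80: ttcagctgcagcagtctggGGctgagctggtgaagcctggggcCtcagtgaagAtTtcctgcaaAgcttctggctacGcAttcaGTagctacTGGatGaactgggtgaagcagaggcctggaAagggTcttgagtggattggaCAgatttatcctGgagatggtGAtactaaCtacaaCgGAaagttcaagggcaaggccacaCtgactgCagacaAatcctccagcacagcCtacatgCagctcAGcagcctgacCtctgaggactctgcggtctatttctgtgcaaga
They differ at 33 of the 290 bases and are 88.6% identical. The closest other Ighv gene, aligned without gaps over the same length, was Ighv1-84 for Ighv1-85 (94.1% identical) and Ighv1-82 for Ighv1-80 (96.2%). How reads that match several genes were handled is not stated, so a share on 1 symbol may include reads of its closest relatives.

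HSCs of cohort 1 had little Ighm in O-WT and O-NR. Ighm was at 4.92 and 5.46 CPM in the 2 O-WT libraries and at 8.20, 8.47, 3.88 and 3.41 CPM in O-NR libraries 1 to 4. The O-NR values lay on both sides of the O-WT values. Smell and pheromone receptors summed to 6124 and 8731 CPM in the O-WT libraries and to 13843, 13739, 6185 and 5390 CPM in O-NR libraries 1 to 4, so the 2 O-NR libraries higher in Ighm were also the higher ones in these receptors, and their part in the Ighm values was not tested. Igkc was at 2.70 and 3.93 CPM in O-WT and at 15.4, 4.14, 14.4 and 1.43 CPM in O-NR, with O-NR libraries 1 and 3 the high ones. The same libraries were highest in Igha, which had means of 12.5 ± 8.13 CPM in O-NR (SD, n = 4) and 5.49 ± 1.31 CPM in O-WT (SD, n = 2), with overlapping ranges. By the filter on low values, more than 3 CPM in at least 2 libraries, 6 members were tested, and 0 of them had an unadjusted p below 0.01 or 0.05 by edgeR's quasi-likelihood test, where 0.048% of all 33350 genes tested passed 0.01. DESeq2 also gave 0 below 0.01. The log2 fold change for O-NR against O-WT was 1.26 (SE 0.87) for Igkc, 1.03 (SE 0.66) for Igha, 0.41 (SE 0.44) for Jchain and −0.01 (SE 0.74) for Ighm. These O-NR libraries also enter the comparison with O-NR-RC that chose Igkc. That choice could favour low Igkc in them, so the value of Igkc is a description. Its missing call cannot decide whether NR changed it.

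After NR was withdrawn, Ighm and Igkc were high in some libraries. Ighm was at 57.4, 8.25 and 171 CPM in O-NR-RC libraries 1 to 3, so that library 2 lay within the O-NR range. Igkc was at 19.7, 23.8 and 156 CPM, against 1.43 to 15.4 CPM in O-NR of the cohort. Igkc was chosen for this rise, so that the ranges lie apart is no support. The share of all genes whose ranges lie apart was not counted. The log2 fold change from O-NR to O-NR-RC was 2.69 (SE 0.71) for Igkc and 3.72 (SE 0.66) for Ighm, and that of Igkc was 1.47 without O-NR-RC library 3. Igha was at 2.77, 28.3 and 21.4 CPM in the same order and overlapped O-NR, with a log2 fold change of 0.20 (SE 0.55). Jchain (0.02, SE 0.39), Ighd (0.25, SE 0.33) and Ighg2b (0.07, SE 0.20) differed by less than their errors. Library 2 had 288 Igkc reads for every 100 of Ighm, and libraries 1 and 3 had 34.3 and 91.2. The receptors of smell and pheromones summed to 4281, 14711 and 14076 CPM in O-NR-RC libraries 1 to 3. All 5 neutrophil markers had positive log2 fold changes from O-NR to O-NR-RC, with a median of 1.02 against 0.02 over all genes, and summed to 37.2 to 116 CPM in O-NR-RC and 23.1 to 48.0 CPM in O-NR. Of 5 erythroid markers, 2 passed the filter, with log2 fold changes of 0.05 and 2.46. The 5 summed to 14.5 to 68.2 CPM in O-NR-RC, with a median of 15.2 CPM. Their sums were 9.08 to 13.1 CPM in O-NR and 13.8 to 41.7 CPM in O-WT of the cohort. All 5 HSC markers had negative values (median −0.28). The part of these markers in the Ighm and Igkc values was not tested.

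The V genes again differed between libraries. The median Ighv symbol had 8 to 18 reads in this cohort, where it had 0 to 2 in cohort 2 HSCs. O-NR-RC library 1 had Ighv1-55 at 306 of 2433 reads and Igkv3-4 at 190 of 1971. Ighv1-55 had also led in O-WT library 3 of cohort 2. O-NR-RC library 3 had Ighv11-2 at 357 and Ighv1-9 at 177 of 2906 Ighv reads, with Igkv14-126 at 439 and Igkv16-104 at 293 of 3003 Igkv reads. The leaders of O-NR library 3 were Ighv1-81 (335 of 2559) and Igkv9-120 (116 of 2033). In the other 6 libraries of cohort 1 the top share was between 2.38% and 3.10% for Ighv and between 2.75% and 3.29% for Igkv. Among these 6 were O-NR library 1 and O-NR-RC library 2, in which Igkc was at 15.4 and 23.8 CPM. These 2 were also high in smell and pheromone receptors, and 180 and 177 of their 183 Ighv symbols had at least 3 reads. The part of such spread reads in their low top shares was not tested.

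Ighv11-2 with Igkv14-126 is a pair known from B-1 cells, which make natural IgM. The ends of the V genes that led in O-NR-RC library 3 and in O-NR library 3 of cohort 2 were chosen after their values were seen. They are shown because the leading Igkv symbol held a larger share of Igkv reads there than in the other libraries of the same group. Each is the last 120 coding bases in mm10, with capitals from the last in-frame cysteine codon, where the variable loop that meets antigen begins, to the 3′ end.
Ighv11-2: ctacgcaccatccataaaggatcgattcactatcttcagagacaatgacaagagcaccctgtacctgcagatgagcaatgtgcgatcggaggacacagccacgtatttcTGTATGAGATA
Igkv14-126: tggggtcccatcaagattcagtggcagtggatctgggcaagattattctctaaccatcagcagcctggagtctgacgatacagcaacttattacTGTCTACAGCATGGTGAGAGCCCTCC
Ighv3-6: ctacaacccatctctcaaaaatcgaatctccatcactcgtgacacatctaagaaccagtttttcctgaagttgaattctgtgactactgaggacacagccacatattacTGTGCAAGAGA
Igkv5-39: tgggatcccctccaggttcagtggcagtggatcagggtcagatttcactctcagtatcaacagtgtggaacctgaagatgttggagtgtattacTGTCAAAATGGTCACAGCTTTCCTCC
They lie at chr12:114048241-114048360 (minus strand), chr6:67896523-67896642 (plus), chr12:114288152-114288271 (minus) and chr6:69900424-69900543 (minus). The 2 heavy chain genes keep 11 germline bases from the cysteine codon on and the 2 kappa genes keep 26. Ighv11-1 is 98.6% identical to Ighv11-2 over 290 bases, so the 2 are hard to separate by short reads.

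**Figure D2:**
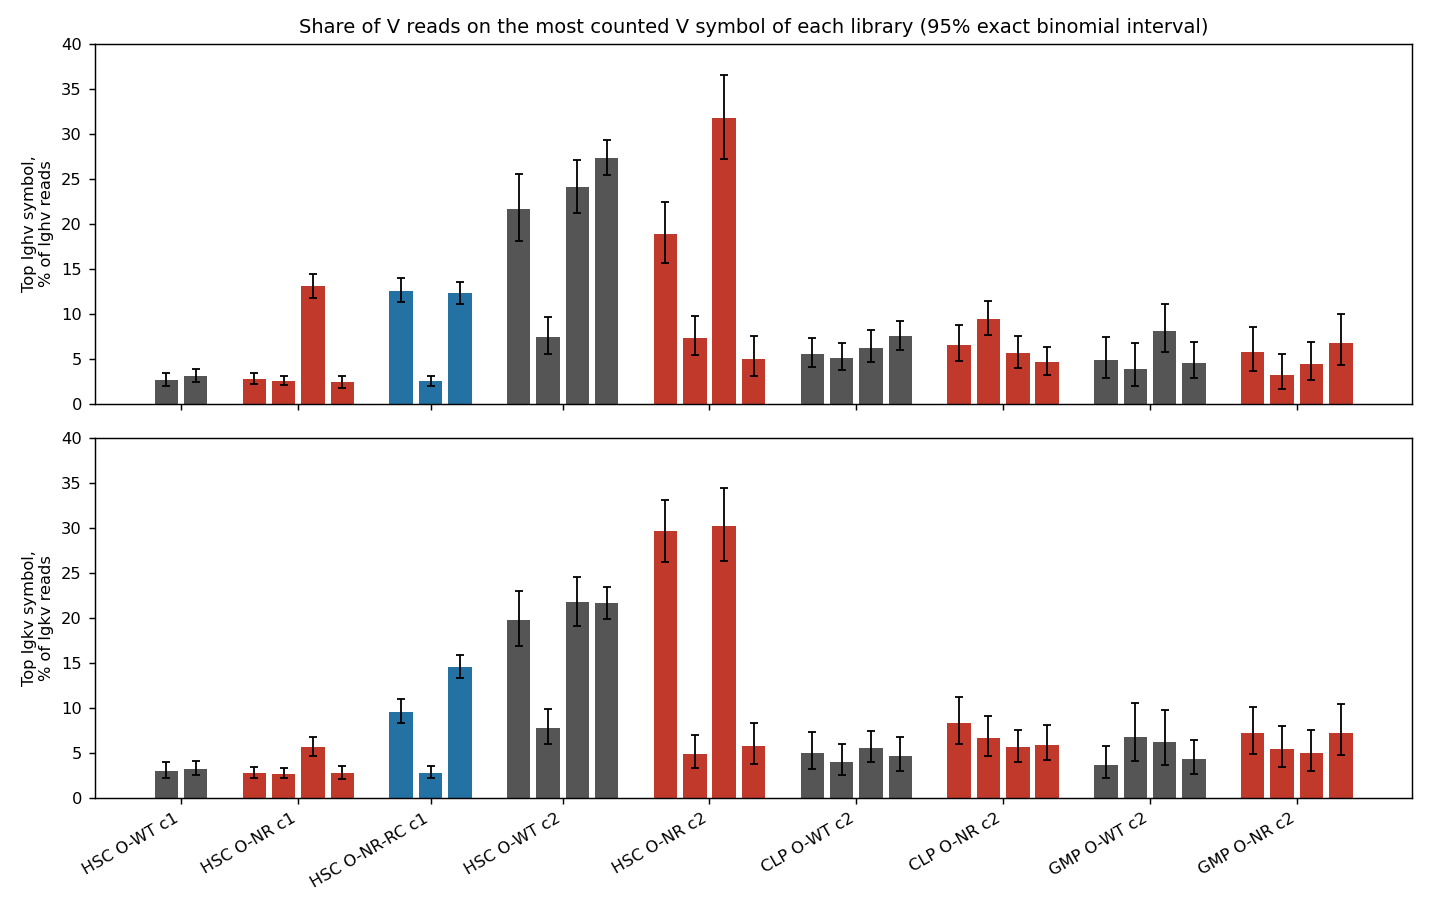
Share of Ighv reads (top) and Igkv reads (bottom) on the most counted symbol of each library, in percent, with 95% exact binomial intervals as error bars and colours by treatment as before. Shares above 18% were found in 5 HSC libraries of cohort 2 for Ighv, and no CLP or GMP library exceeded 9.45%.

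CLPs held Ighm with hardly any kappa chain. Ighm was at 611, 562, 424 and 508 CPM in O-WT libraries 1 to 4 and at 587, 642, 546 and 535 CPM in O-NR. Ighd was at 26.9 to 38.9 CPM in O-WT and 29.9 to 39.0 CPM in O-NR, and Ighg2b at 27.0 to 48.5 and 13.9 to 53.8 CPM. Igkc was only at 8.34, 2.30, 0.626 and 0.663 CPM in O-WT and at 0.793, 5.22, 1.28 and 4.52 CPM in O-NR. For every 100 Ighm reads there were 0.131 to 1.36 Igkc reads. The top Ighv share was between 4.62% and 9.45%, and no symbol stood out as in HSCs. Reads on the 4 Ighj symbols, the joining segments next to Ighm, summed to 11.5 to 23.3 CPM in CLPs and to at most 2.92 CPM in any HSC or GMP library. Mzb1 was at 0.793 to 4.63 CPM and Jchain at 1.33 to 7.53 CPM in CLPs.

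No member passed the test for NR in CLPs. Of 5 members tested, 0 had an unadjusted p below 0.01 or 0.05 by edgeR's quasi-likelihood test, where 0.412% of all 19909 genes passed 0.01, and DESeq2 gave 0 below 0.01. Jchain had a log2 fold change of 0.92 (SE 0.50, unadjusted p = 0.073), at 5.01 ± 2.46 CPM in O-NR and 3.13 ± 2.20 CPM in O-WT (SD, n = 4; edgeR). Ighm had 0.24 (SE 0.24), Ighd 0.24 (SE 0.20), Mzb1 0.25 (SE 0.52) and Ighg2b −0.07 (SE 0.26). The direction of Ighg2b turned when 1 library was left out.

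GMPs had Ighm as well, and almost nothing of the other members. Ighm was at 52.6, 44.3, 50.2 and 34.2 CPM in O-WT libraries 1 to 4 and at 25.0, 28.3, 31.3 and 99.6 CPM in O-NR. O-NR libraries 1 to 3 were under each O-WT library and library 4 was above each. Igkc was at 0.0549 to 0.536 CPM, at most 8 reads, and Ighd, Ighg2b, Igha and Jchain did not exceed 2.11 CPM. Ighm was the 1 member that passed the filter. Its log2 fold change was −0.02 (SE 0.34, unadjusted p = 0.949 by edgeR), so 0 of 1 member was called, and 0.986% of all 13486 genes had an unadjusted p below 0.01. Without O-NR library 4 it was −0.72, with an unadjusted p of 6.74e-05 and an adjusted p of 0.0681 by edgeR (0.0681 to 1.00 over all alternatives), so 1 library decided this value. DESeq2 also gave 0 of 1 below 0.01.

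**Figure D3:**
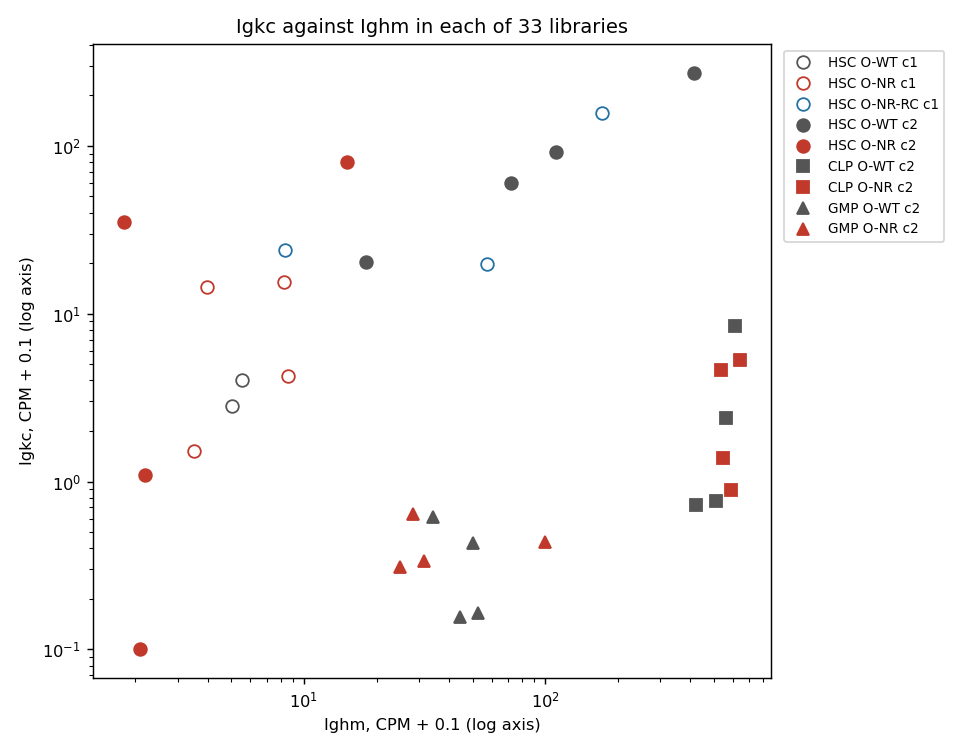
Igkc against Ighm in each of the 33 libraries, both as CPM plus 0.1 on log axes, with circles for HSCs, squares for CLPs and triangles for GMPs, open for cohort 1 and filled for cohort 2. CLPs and GMPs lie low in Igkc whatever their Ighm, while O-NR HSC libraries 1 and 3 of cohort 2 lie high in Igkc with Ighm at 15.0 and 1.70 CPM.

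The labels name 2 cohorts without saying how they differ, so the order of their groups is a description. Over all groups the order of mean Ighm levels was CLP O-NR and CLP O-WT (578 and 526 CPM), HSC O-WT of cohort 2 (154), HSC O-NR-RC (79.0), GMP O-NR and GMP O-WT (46.0 and 45.3), and then HSC O-NR and O-WT of cohort 1 and HSC O-NR of cohort 2 (5.99, 5.19 and 5.19). Ranges of neighbours in that order overlapped except between CLP O-WT and HSC O-WT and between GMP O-WT and HSC O-NR of cohort 1. For Igkc the order was HSC O-WT of cohort 2 (111 CPM), HSC O-NR-RC (66.6), HSC O-NR of cohort 2 (29.2), HSC O-NR and O-WT of cohort 1 (8.84 and 3.32), CLP O-WT and O-NR (2.98 and 2.95) and GMP O-NR and O-WT (0.329 and 0.240). Its neighbouring groups overlapped at every step but that from CLPs to GMPs.

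Cell types were compared within each treatment over the 12 libraries of cohort 2, which share 1 fit by edgeR. The HSC libraries of this cohort served to choose the members, so members are described in the comparisons with HSCs and carry no test there. The deposited tables of the 3 cell types carry the same set of numbers in the same replicate order, although no label names the mouse, and values with the replicate number as a block are given where they changed a call or moved a described value by much. In each treatment 5 members passed the filter (Ighm, Ighd, Ighg2b, Igkc and Jchain) and the other 5 did not. Ighd and Ighg2b passed it only because of the CLP libraries, where they were high. In O-WT, CLPs stood above HSCs in Ighd (log2 fold change 4.57, SE 0.32), Ighg2b (3.30, SE 0.26) and Ighm (1.58, SE 0.48), and below them in Igkc (−5.35, SE 0.64) and Jchain (−2.56, SE 0.46). Over all 20044 genes, 30.3% passed an adjusted p of 0.05 in that comparison, 10.4% higher and 19.9% lower. The Ighm difference was 2.83 without HSC O-WT library 4, the library at 415 CPM. The ranges of Jchain overlapped. All 5 neutrophil markers were higher in CLPs than in HSCs of O-WT mice at an adjusted p below 0.05 by edgeR's quasi-likelihood test, where 10.4% of all genes were, as were the 4 tested in O-NR. By the same CPM limit, 1 of the 5 passed in HSCs of cohort 2 alone, so others could enter through the CLP libraries, where they were high. The part of these markers in the members' values was not tested.

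In O-NR, CLPs stood above HSCs in Ighm (log2 fold change 6.76, SE 0.54), Ighg2b (3.10, SE 0.35) and Ighd (2.02, SE 0.66), and below them in Igkc (−3.32, SE 0.88). Over all genes 40.9% passed the same threshold, 18.3% higher and 22.6% lower. Jchain, at −0.47 (SE 0.47), differed by about its error. Without HSC O-NR library 1 the difference in Ighd was 5.40, and with the replicate block that of Igkc was −2.16. The ranges of CLPs and HSCs overlapped for Ighd, Igkc and Jchain.

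GMPs of O-WT mice lay below HSCs in Igkc (log2 fold change −8.65, SE 0.82), Jchain (−3.46, SE 0.48) and Ighg2b (−1.01, SE 0.29), where 44.2% of all genes passed the threshold, 22.6% higher and 21.5% lower, and the median of all genes was at −0.31. Ighd was at 0.25 (SE 0.36). The Ighm difference of −1.47 (SE 0.49) rested on HSC O-WT library 4, since it was −0.22 without that library and −0.91 with the replicate block, and the 4 GMP values lay within the HSC range. In O-NR, where 46.4% of all genes passed it, 24.4% higher and 22% lower, Ighm was higher in GMPs by 3.37 (SE 0.49). Igkc (−6.23 on the log2 scale), Ighd (−2.29, SE 0.78) and Jchain (−1.90, SE 0.50) were lower there, as was Ighg2b, with means of 1.39 ± 0.504 CPM in GMPs and 3.74 ± 1.75 CPM in HSCs (SD, n = 4). The Ighd difference turned to 1.09 without HSC O-NR library 1, the library at 31.3 CPM, and was −1.25 with the replicate block. The ranges of Igkc, Ighd and Ighg2b overlapped in O-NR.

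CLPs against GMPs compare none of the libraries the choice was made on, although HSC libraries share the fit and its estimate of spread. Calls were made at an adjusted p below 0.05 by edgeR's quasi-likelihood test. A call of Ighd or Ighg2b as higher in CLPs was to be foreseen, since both passed the filter through the CLP libraries. In O-NR, Jchain and Igkc also needed CLP libraries to pass it, and no GMP library exceeded 3 CPM of either. In O-WT, Igkc and Jchain passed it through the HSC libraries, which served to choose the members. Calls of these genes, and counts of calls, therefore say little about the members. In O-WT, 60.8% of all 20044 genes were called, 32.2% higher and 28.6% lower in CLPs, and Ighd, Ighg2b, Ighm and Igkc were called higher. The log2 fold change was 4.32 (SE 0.32) for Ighd, 4.31 (SE 0.28) for Ighg2b, 3.05 (SE 0.51) for Ighm and 3.30 (SE 1.05, adjusted p = 0.0105, edgeR) for Igkc. The value for Igkc was 1.93 with an adjusted p of 0.0755 by edgeR without CLP O-WT library 1, the one at 8.34 CPM (9.32e-10 to 0.0755 over the alternatives). Jchain, at 0.89 (SE 0.50), was called only with upper quartile scaling (1.37) and with the replicate block (1.05, adjusted p = 0.045, edgeR), with a range from 0.044 to 0.373. In O-NR, 50.1% of all 18080 genes were called, 23.9% higher and 26.1% lower. The members called higher were Ighd (4.30, SE 0.78), Ighg2b (4.21, SE 0.38), Ighm (3.38, SE 0.44) and Jchain (1.43, SE 0.50). Jchain lost its call without CLP O-NR library 3 or 4 or GMP O-NR library 1 or 2, with adjusted p from 0.0501 to 0.0783 by edgeR (from 0.00628 over the alternatives). Igkc was at 2.91 (SE 1.24, adjusted p = 0.0533, edgeR), and its 4 CLP values lay above its 4 GMP values. It was called with the replicate block (3.40, adjusted p = 0.0216, edgeR), with other filters and with median-of-ratios scaling (1.59e-10 to 0.106 over the alternatives).

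**Figure D4:**
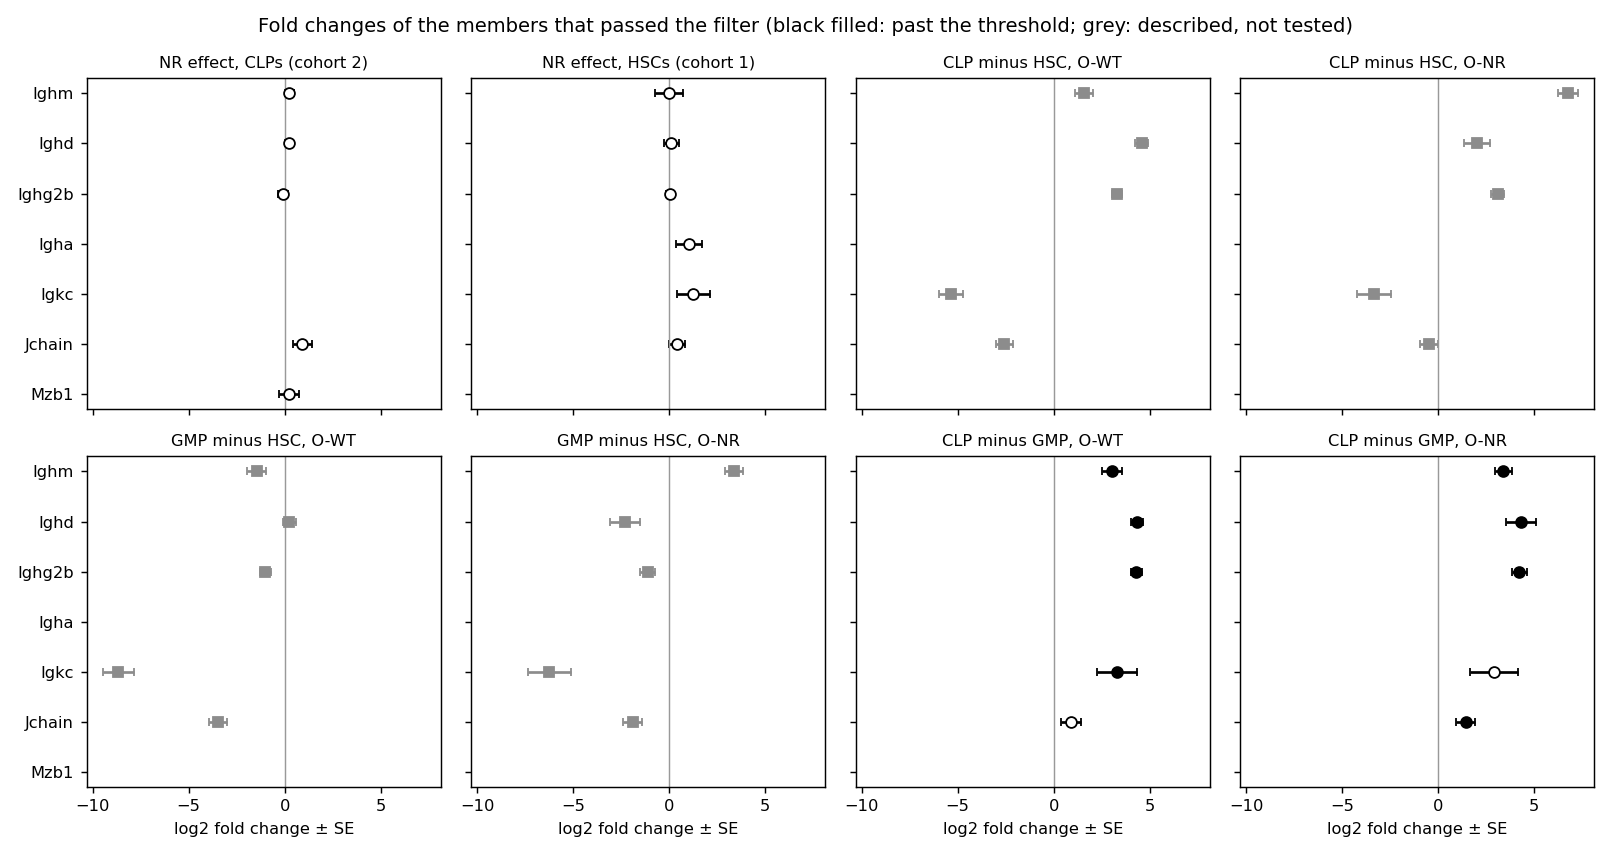
Log2 fold changes with standard errors of the members that passed the filter, filled where they passed the threshold of a tested comparison and grey where HSCs of cohort 2 are compared, which carries no test; the NR effect in GMPs, with Ighm alone, is not drawn. Ighm, Ighd and Ighg2b lie above 0 and Igkc below 0 for CLPs against HSCs in both treatments, and all 5 members lie above 0 for CLPs against GMPs.

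Other genes of the B lineage were counted from lists chosen with earlier results of these data known, and the CLP sort itself selects for the product of 1 of the early B cell genes, Il7r. The list of early B cell and recombination genes was higher in CLPs than in HSCs for 12 of 12 tested genes in O-WT, where 10.4% of all genes were higher, and for 12 of 12 in O-NR, where 18.3% were. It includes Dntt, which adds bases at V junctions (log2 fold change 8.88, SE 0.34 in O-WT), Rag1, which cuts the DNA to be joined (6.44, SE 0.30), and the transcription factors Ikzf1 (1.61, SE 0.21) and Tcf3 (0.80, SE 0.18). The list median was 5.07 against 0.08 over all genes. By the same CPM limit, 7 of the 12 passed in HSCs of cohort 2 alone and 6 in GMPs alone. The rest could enter through the CLP libraries, where the list was high, so the count of 12 says little by itself. Of 17 mature B cell genes, 10 were higher and 0 lower in CLPs than in HSCs of O-WT mice, where 10.4% and 19.9% of all genes were. In O-NR, 10 of 15 tested were higher and 1 lower, where 18.3% and 22.6% of all genes were. By the same CPM limit, 13 of the 17 passed in HSCs of cohort 2 alone, so the rest could enter through the CLP libraries. Higher in O-WT were the B cell factor gene Pax5, Cd37 (2.89, SE 0.19) and the kinase gene Btk (0.56, SE 0.17), while Cd74 was at −0.30 (SE 0.25, adjusted p = 0.382, edgeR). Of 3 other immunoglobulin constant genes tested there (Ighg1, Ighg3 and Ighe), 0 were called at an adjusted p below 0.05 by edgeR, at 0.27 to 0.36, and their unadjusted p was above 0.05.

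Plasma cell and secretory genes did not move as 1 group between cell types. In O-WT, 4 of 18 tested were higher and 5 lower in CLPs than in HSCs, where 10.4% and 19.9% of all genes were, with a list median of 0.20 against 0.08 over all genes. Xbp1, a factor plasma cells need, was lower in CLPs by −1.51 (SE 0.23), and the folding and processing genes Hsp90b1 (0.39, SE 0.23), Pdia4 (0.28, SE 0.21) and Sec11c (0.28, SE 0.16) were not called. In GMPs 8 of 18 were higher and 2 lower than in HSCs of O-WT mice, where 22.6% and 21.5% of all genes were, with Pdia4 (2.32, SE 0.21), Hsp90b1 (2.28, SE 0.24) and Sec11c (1.33, SE 0.16) higher. These 3 genes serve secretion in many cell types.

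Over these lists, the tests for NR in CLPs, GMPs and cohort 1 HSCs gave 1 call, for Dnajb9, a chaperone gene of the plasma cell and secretory list. It was lower in O-NR GMPs by −0.41 (SE 0.11, unadjusted p = 0.00155, adjusted p = 0.745, edgeR), where 0.749% of all genes were lower at an unadjusted p below 0.01. This gene was named after its value was seen. The early B cell list had a median log2 fold change of 0.18 in CLPs, with 11 of 12 positive, 1 negative and 0 called by edgeR at an unadjusted p below 0.01, against −0.00481 over all genes.

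Markers of mature B and plasma cells in the HSC libraries are given beside the Ighm and Igkc levels, and their part in those levels was not tested. In cohort 2, the 4 mature B cell markers Cd79a, Cd79b, Ms4a1 and Pax5 summed to 17.3 to 35.9 CPM in O-WT and 17.6 to 28.4 CPM in O-NR HSCs, against 212 to 498 CPM in CLPs and 14.5 to 23.8 CPM in GMPs. Cd79a, which B cells need for their receptor, was at 0.949 to 1.48 CPM in O-WT and 0.778 to 2.11 CPM in O-NR. The 5 plasma cell markers Sdc1, Prdm1, Irf4, Tnfrsf17 and Xbp1 summed to 93.3 to 212 CPM in O-WT and 57.4 to 79.0 CPM in O-NR HSCs, against 87.3 to 138 CPM in CLPs and 108 to 130 CPM in GMPs. The share of all genes whose 2 HSC groups lie apart was not counted, so these ranges say little about the plasma cell markers as a set. Most of the sum in HSCs was Xbp1, at 82.8, 122, 89.1 and 194 CPM in O-WT and 66.7, 47.0, 49.6 and 56.9 CPM in O-NR. The other 4 ranged together from 0.105 to 9.37 CPM in HSCs and overlapped between the groups. In GMPs, which had almost no Igkc, Xbp1 was at 97.5 to 122 CPM. No marker of the 2 lists was at 0 in every library of a group. In cohort 1 the plasma cell sum was 71.5 to 99.5 CPM in O-NR-RC and 73.4 to 103 CPM in O-NR, and the mature B cell sum was 26.5 to 69.8 and 28.6 to 62.2 CPM.

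The genes whose levels were most like Ighm over the 17 HSC libraries, centred per cohort, were Aen (Pearson r = 0.79), Rasgef1b, Slc4a1ap, Dcaf6 and Mphosph10, with r from 0.78 to 0.79. Igkc was at rank 7 of 30769 genes with r = 0.77, and Jchain at rank 446. For Igkc the closest were Srek1ip1 (r = 0.80), Gm20621, Jchain (r = 0.79), Ighm and Gm5124. Igha was at rank 924 for Igkc and at r = −0.09 for Ighm. These are descriptions over libraries that include the selecting ones. The points share depth and cohort, and 1 high library can set r.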

How the data were processed

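Total RNA of sorted HSCs, CLPs and GMPs was made into stranded libraries with the SMARTer Pico v2 kit. After trimming and alignment to mm10 with STAR, the authors made raw read counts per gene symbol with featureCounts and Gencode M22, and 1 table of counts per library was deposited. Strand and multimapping settings are not given in the sources used here, so antisense reads, near-identical V genes and the secreted and membrane ends of a constant region cannot be separated. All 33 tables were used, grouped by their titles, with 4792380 to 23816042 counted reads each.

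Members and gene lists were chosen with earlier results of these data known, and 1 gene of the mature B cell lists is not reported here. A gene was tested where it exceeded 3 CPM in a minimum number of libraries set by the size of the smaller group (4 for cell types), with edgeR 4.0.16 (quasi-likelihood test, TMM scaling) in R 4.3.3, with Benjamini-Hochberg adjustment over all genes tested. NR effects were called at an unadjusted p below 0.01 and cell types at an adjusted p below 0.05, with members described, not tested, against cohort 2 HSCs. Per-kilobase values use the summed exon length in Gencode M21, which also gave positions and sequences. All 10 members and at most 4 genes of each list, those highest in mean CPM over the 33 libraries, are named. Likeness was Pearson's r of log2 CPM with a prior count of 2.

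Alternatives were DESeq2 1.42.0, other scalings and filters, all 24 libraries of cohort 2 together, each library left out and the replicate number as a block. The deposited tables of cohort 2 carry the same set of numbers across cell types in replicate order, although no label names the animal. In a check of deviations from group means, no comparison had every same-numbered pair above 0.1 in correlation. In simulated data for NR in CLPs, 19191 genes passed the filter, 175 of them changed by 2 on the log2 scale. Of these 175, 100% were found at an unadjusted p below 0.01 and 94.9% at an adjusted p below 0.05 by edgeR. Changed genes that the filter removed are not counted. Replicates differed by more than sampling noise in each of 46 pairs (at least 1.96 chi-square per degree of freedom).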

Additional observations from a re-analysis of the deposited data

Results flagged for a closer look

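A library far from the others of its group, past the 95% limit of Dixon's test, was found 6 times in 70 groups of 4 libraries. The limit serves as a flag and not as a test, since members were selected on measured values and many counts are low. Ighm of cohort 2 HSCs is among the values that chose the members. In O-NR HSCs of cohort 2, library 1 stood apart in Ighm, at 15.0 CPM with the next at 2.09 CPM, and in Ighd, at 31.3 CPM with the next at 1.77 CPM. Library 3 of the same group stood apart in Iglc2, at 2.34 CPM with the next at 0.443 CPM. Library 3 of O-WT HSCs in cohort 2 stood apart in Igha, at 14.7 CPM with the next at 2.96 CPM. In O-NR GMPs, library 4 stood apart in Ighm, at 99.6 CPM with the next at 31.3 CPM. Library 3 of O-WT CLPs stood apart in Iglc2, at 1.04 CPM with the next at 0.287 CPM, which is a difference of few reads.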

How the results depend on the processing

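Over the member differences of the 9 fitted comparisons, including those with HSCs that the report gives as descriptions, 277 values with 1 library left out and 272 under the other alternatives kept their direction and their side of the threshold, 13 and 7 lost a call, 2 and 7 gained one, and 16 and 2 turned direction. With upper quartile scaling, Ighm for NR in cohort 1 HSCs was 0.091 and Ighd for GMPs against HSCs in O-WT was −0.027. Without single libraries, the log2 fold change for NR ranged from −0.47 to 0.18 for Ighg2b in CLPs, from −0.72 to 0.18 for Ighm in GMPs, and in cohort 1 HSCs from −0.13 to 0.090 for Ighm, from −0.10 to 0.32 for Ighd and from −0.059 to 0.12 for Ighg2b. Ighd for GMPs against HSCs in O-NR ranged from −2.70 to 1.09. Without single libraries, the number of members called ranged from 0 to 1 for NR in GMPs and from 2 to 4 for CLPs against GMPs in O-WT. The described Ighm difference of cohort 2 HSCs ranged from −6.33 to −3.63 and the Igkc difference after withdrawal from 1.47 to 3.25. DESeq2 called 2 members for CLPs against GMPs in O-NR, where it gave no adjusted p for some members. With no filter, 7 members were called for CLPs against GMPs in O-NR, since more members were tested. The median library had 72 Igkv symbols with at least 3 reads and 119 with at least 1.

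With the replicate number as a block, 0 members were called for NR in CLPs, GMPs and cohort 1 HSCs. For CLPs against GMPs, 5 members were called in O-WT and 5 in O-NR. The described differences with the block were −4.57 for Ighm in cohort 2 HSCs and 2.09 for Igkc after withdrawal. The share of all genes called under each alternative is not given, so the counts of members called say little about the members. In the main fits of CLPs against GMPs, 60.8% of all genes were called in O-WT and 50.1% in O-NR. For treatments, libraries share only a number.

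Depth limits the members under about 1 CPM, Mzb1 and the lambda chains above all. The cause of these changes was not tested.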
